A study of Mus musculus with 6 samples.

Results

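The respiratory chain and ATP synthase subunits encoded in the nucleus were compared between the carotid bodies of A/J and DBA/2J mice. Members were the genes named alone by a probe set and carrying a symbol that starts with Ndufa, Ndufb, Ndufc, Ndufs, Ndufv, Uqcr, Cox5, Cox6, Cox7, Cox8 or Atp5, together with Sdha, Sdhb, Sdhc, Sdhd and Cyc1. Assembly factors named Ndufaf and the genes Ndufa4, Ndufa4l2, Cox6a2, Cox7a1 and Cox8b were left out by that choice. This gave 76 of the 18194 genes named by a probe set of their own, measured by 162 of 45101 probe sets. Of these, 75 genes were bright enough to be tested (146 probe sets): 34 of complex I, 4 of complex II, 9 of complex III, 11 of complex IV and 17 of complex V.

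Carotid bodies, the oxygen-sensing organs at the fork of the carotid artery, were taken from male mice of both inbred strains at 28 days of age, with no treatment and no engineered allele in the labels. RNA was extracted with Trizol, amplified from the poly(A) tail in a small-sample procedure and hybridised to Affymetrix Mouse 430 2.0 arrays, 3 per strain. The A/J arrays 1, 2 and 3 held pools of 20, 21 and 19 mice (40, 42 and 38 carotid bodies), and the DBA/2J arrays 1, 2 and 3 held pools of 19, 18 and 19 mice (38, 36 and 38 carotid bodies). The spread between arrays is therefore that between pools and not between mice, and 3 arrays per strain limit the precision of every value. The study asked which genes differ between carotid bodies of these strains, whose organs are known to differ in size.

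The respiratory chain passes electrons from NADH (complex I) and succinate (complex II) through ubiquinone to complex III, by cytochrome c to complex IV and on to oxygen, while complexes I, III and IV pump protons across the inner mitochondrial membrane. ATP synthase (complex V) lets the protons back and makes ATP. In the carotid body the chain is studied as part of oxygen sensing, since its inhibitors excite type I (glomus) cells as hypoxia does. In people, inherited loss of complex II subunits, SDHD above all, gives rise to tumours of this organ.

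Values are linear signals as deposited, and each log2 difference is the DBA/2J mean of log2(signal + 16) less the A/J mean, with its limma standard error. Every p was adjusted by Benjamini-Hochberg over the 27022 probe sets tested, and a gene was called at an adjusted p under 0.05. The arrays had been scaled to the same trimmed mean, and median signals lay between 163.6 and 183.0. The Gapdh 3' to 5' signal ratio, a sign of RNA length, was 1.74, 4.87 and 1.81 on the A/J arrays and 2.5, 3.28 and 1.73 on the DBA/2J arrays. Type I cell markers were present on every array, with Th, tyrosine hydroxylase, from 2760.1 to 8416. All 14 tested had log2 differences above 0, 8 of them called higher, and their share of an array's summed signal was 0.125% to 0.154% for A/J and 0.254% to 0.305% for DBA/2J. The A/J pools also carried skeletal muscle RNA, whose values are given beside the members below.

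By their estimates, nearly all subunits of the 5 complexes had lower signals in the DBA/2J pools, by a modest amount, and a single gene passed the test. Of 75 members, 73 had log2 differences below 0 (47.0% of the 13006 genes tested did), and the median was -0.45 against 0.025 over all genes. Ndufc1, a small membrane-arm subunit of complex I, was called lower, and 0 members were called higher. That is 1 of 75 called in either direction, where 3.77% of all genes were called (1.6% of all genes lower and 2.17% higher), so the count of calls was near the background. At an unadjusted limma p under 0.05, 30 of 75 members were lower and 0 higher, while 7.83% of all genes were lower at that level. In 26 of 75 members every DBA/2J array lay below every A/J array, against 9.69% of all genes. By the rule the series states (at least 6 of 9 array pairs at 1.5-fold and p under 0.05, with the unadjusted limma p standing in), 10 members were lower and 0 higher, against 4.66% of all genes lower and 5.48% higher. The 1241 other genes whose mean log2 value was also in the upper 10%, where 60 of the members lay, had a median of -0.055, with 718 below 0.

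In pooled tissue, fewer cells rich in mitochondria and less RNA per cell cannot be told apart. The count of called members depended on single arrays: it was 0 without A/J array 1, 2 or 3 and without DBA/2J array 1 or 3, and 16 without DBA/2J array 2, while the median ran from -0.27 without DBA/2J array 3 to -0.62 without DBA/2J array 2. With array weights 32 were called. With each array's mean over skeletal muscle markers added to the fit (higher on every A/J array than on any DBA/2J array), 0 members were called, the median turned to 0.55 and the median standard error of the members rose from 0.21 to 0.70.

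**Figure D1:**
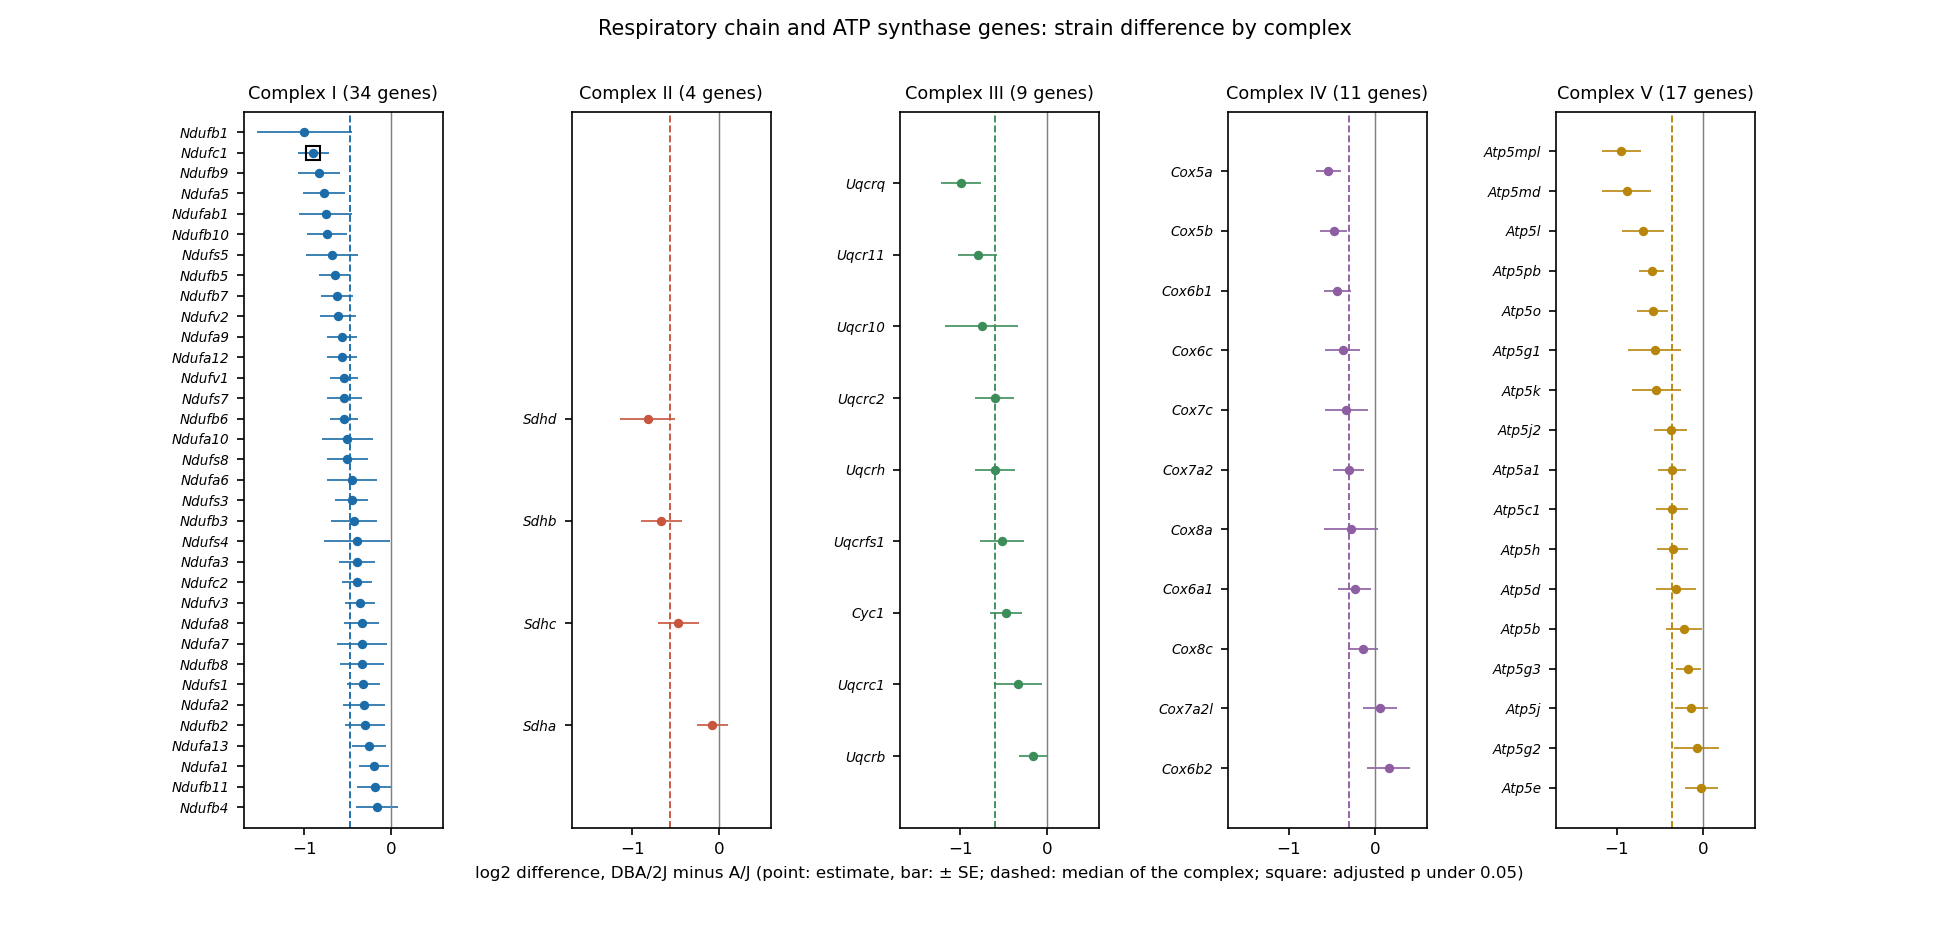
Log2 difference (DBA/2J minus A/J) of each of the 75 tested members, by complex. Points are limma estimates and bars ± 1 standard error, the dashed line is the median of the complex, the grey line is 0 and the square marks the one member with an adjusted p under 0.05, Ndufc1. All but Cox7a2l and Cox6b2 lie left of 0.

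The complexes differed little from one another beside the spread of their members. Median log2 differences were -0.47 in complex I (from -1.0 for Ndufb1 to -0.16 for Ndufb4), -0.57 in complex II (from -0.82 for Sdhd to -0.073 for Sdha) and -0.60 in complex III (from -0.99 for Uqcrq to -0.16 for Uqcrb). They were -0.30 in complex IV (from -0.54 for Cox5a to 0.16 for Cox6b2) and -0.36 in complex V (from -0.95 for Atp5mpl to -0.020 for Atp5e). No difference between complexes was tested.

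Array by array, the members moved together. The median member stood at 0.14, -0.12 and -0.02 from its own A/J mean on A/J arrays 1, 2 and 3, and at -0.48, -0.13 and -0.73 on DBA/2J arrays 1, 2 and 3. DBA/2J array 2 thus stood level with A/J array 2, the lowest of its strain, and DBA/2J arrays 1 and 3 stood further below. Over all genes the same median was -0.0017 on A/J array 2 and 0.068 on DBA/2J array 2. DBA/2J array 1 lay below all A/J arrays in 60 of 75 members, array 2 in 29 and array 3 in 67, against 28.7%, 25.2% and 30.7% of all genes. A/J array 1 held the highest of the 6 values in 53 members and DBA/2J array 3 the lowest in 56. Among the DBA/2J arrays, array 2 was the highest in 66 of 75 members. The exceptions, named after their values were seen, were Atp5a1, Atp5g3, Cox6b2, Cox7c, Cox8c, Ndufa8, Ndufa9, Sdha and Uqcrc1. The Gapdh ratio was highest on array 2 within each strain, and its part in the members' values was not tested.

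**Figure D2:**
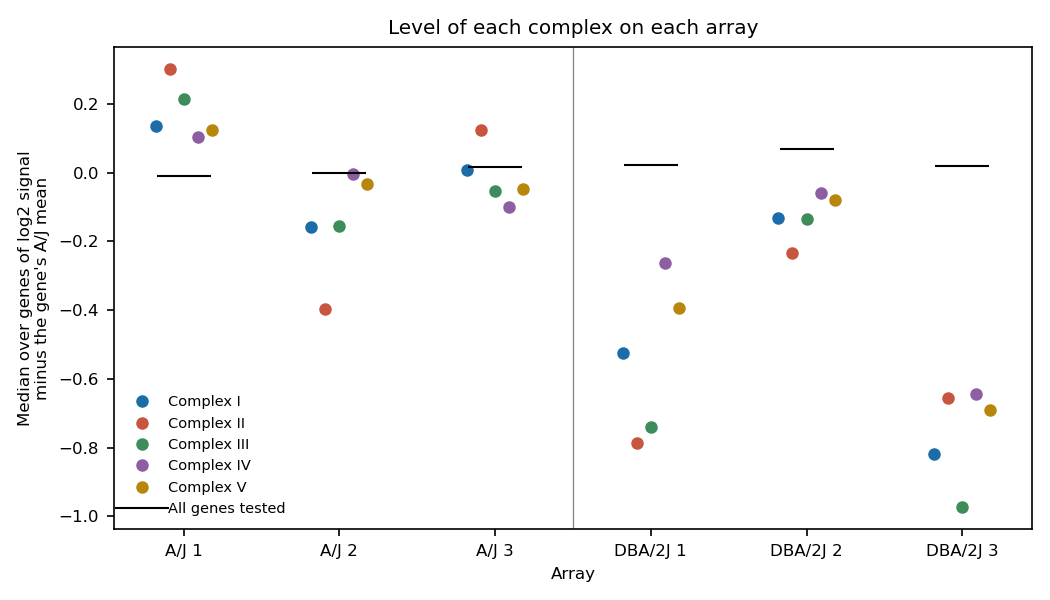
Median over the members of each complex of the log2 signal minus the same gene's A/J mean, on each of the 6 arrays; the black bar is the median over all genes tested. On DBA/2J arrays 1 and 3 every complex lies below the all-gene bar by more than on DBA/2J array 2, where the medians range from -0.23 to -0.06.

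Since the members moved together, their promoters were read from RefSeq (GRCm38.p6), in windows from 250 bases before to 50 bases after each start. Of the 76 members, 64 matched, with 69 windows. Motifs known from genes of the respiratory chain were searched on both strands: GCGCA and GCGC parted by any one base for NRF1, CCGGAAG for GABP and other ETS factors, CAAGGTCA for the oestrogen-related receptors (ERR) and AAGATGGCG for YY1, with GGGCGG for SP1 and CCAAT beside them. Matches of different motifs overlapped in 1 of the 69 windows (GABP with SP1). The NRF1 motif stood in 23.2% of member windows, against 8.84% of windows of tested genes that are no members and 4.6% of all windows. The shares for GABP were 24.6%, 15.5% and 8.86%, for ERR 5.8%, 1.08% and 1.56%, and for YY1 8.7%, 2.59% and 1.4%. SP1 had 43.5%, 59.5% and 35.7%, and CCAAT 40.6%, 36.9% and 37.4%. At least one of the first 4 motifs was in 49.3% of member windows, against 25% and 15%.

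The members' strain differences were set beside their motifs, with no test. The 33 members with at least one of the 4 motifs had a median log2 difference of -0.45 and the 30 tested members without had -0.41. For NRF1 alone the medians were -0.35 with (15 members) and -0.49 without, for GABP -0.54 (17) and -0.39, for YY1 -0.46 (6) and -0.45, and for ERR -0.69 (4) and -0.44. In the whole windows 8 members had more than one kind of these 4 motifs, with log2 differences from -0.82 for Sdhd to -0.14 for Atp5j. The other 6 were Atp5l, Ndufs5, Atp5k, Atp5h, Cox6a1 and Atp5g3. A match describes letters in this window and not a bound site.

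Shown here are the bases just before the start of the called member and of the 3 members with more than one kind of these 4 motifs in that shorter stretch, 5' to 3' on the gene's own strand, cut where another gene begins, with matches in capitals. All 4 genes lie on the minus strand of GRCm38.p6: Ndufc1 with chr3:51408956-51409205, Ndufs5 with chr4:123718187-123718436, Atp5h with chr11:115419920-115420093 and Cox6a1 with chr5:115348959-115349208.
Ndufc1: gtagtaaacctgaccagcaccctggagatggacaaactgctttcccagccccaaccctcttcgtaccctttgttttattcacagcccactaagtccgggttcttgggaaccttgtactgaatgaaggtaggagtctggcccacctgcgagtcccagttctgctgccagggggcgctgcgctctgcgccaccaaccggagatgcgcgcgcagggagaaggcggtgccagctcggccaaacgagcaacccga
Ndufs5: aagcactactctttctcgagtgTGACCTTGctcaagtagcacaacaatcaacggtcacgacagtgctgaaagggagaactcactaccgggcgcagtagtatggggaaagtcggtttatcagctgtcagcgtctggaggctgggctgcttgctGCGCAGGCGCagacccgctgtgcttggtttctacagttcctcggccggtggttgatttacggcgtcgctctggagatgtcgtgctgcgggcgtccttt
Atp5h: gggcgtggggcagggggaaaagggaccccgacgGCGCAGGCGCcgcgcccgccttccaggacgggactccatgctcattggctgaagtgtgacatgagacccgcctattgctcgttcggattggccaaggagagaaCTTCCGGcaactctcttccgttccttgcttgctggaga
Cox6a1: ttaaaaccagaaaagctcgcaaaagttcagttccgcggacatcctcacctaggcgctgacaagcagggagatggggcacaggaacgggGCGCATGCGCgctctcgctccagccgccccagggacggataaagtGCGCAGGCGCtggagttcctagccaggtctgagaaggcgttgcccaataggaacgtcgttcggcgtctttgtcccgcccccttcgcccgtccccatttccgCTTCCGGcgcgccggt
The Ndufc1 stretch holds none of the 4 motifs, and its match for YY1, counted above, begins at base 23 of the transcript. In Ndufs5 the ERR match begins 228 bases before the start and the NRF1 match 98 bases before it. Atp5h has NRF1 at 141 and GABP at 38 bases, and Cox6a1 has NRF1 at 162 and 117 bases and GABP at 16 bases. Their log2 differences were -0.89 (Ndufc1), -0.68 (Ndufs5), -0.35 (Atp5h) and -0.23 (Cox6a1).

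Complex I takes electrons from NADH through flavin and a string of iron-sulfur clusters. Its called member, Ndufc1, had signals of 12165, 8991 and 9210.1 on A/J arrays 1 to 3 and 5327, 6217 and 4720.0 on DBA/2J arrays 1 to 3. All 3 DBA/2J values lay below all A/J values, with A/J array 1 the highest. The A/J mean was 1.86-fold the DBA/2J mean (log2 difference -0.89, SE 0.18, adjusted p = 0.0316, 95% interval -1.30 to -0.49). A dimmer probe set of Ndufc1 ran the same way (log2 difference -0.95, SE 0.25, adjusted p = 0.0895) and was not called. The call was kept without DBA/2J array 2 (adjusted p = 0.0184) and lost without each other array (adjusted p from 0.0595 to 0.134).

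The 6 core subunits of complex I measured here, those conserved from bacteria, were all below 0 with a median of -0.52. Ndufv1, which binds NADH and the flavin, had signals of 8979.7, 7574 and 8149 in A/J and 5369, 6409 and 5222 in DBA/2J. The strains did not overlap (log2 difference -0.54, SE 0.16, adjusted p = 0.12). Ndufv2, its iron-sulfur partner, had 16384, 13563 and 12561 in A/J and 9279, 12061 and 6972 in DBA/2J. The strains again did not overlap, with DBA/2J array 2 the highest of its strain and close under A/J array 3 (log2 difference -0.61, SE 0.21, adjusted p = 0.192). Ndufs1, the largest iron-sulfur subunit, had a log2 difference of -0.32, and Ndufs3, Ndufs7 and Ndufs8, which line the path to ubiquinone, had -0.45, -0.54 and -0.50. In each of these 4 genes the highest DBA/2J array exceeded the lowest A/J array.

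The 28 accessory subunits of complex I, which surround the core and are needed for its assembly, had a median of -0.44, and all 28 were below 0. Among those with non-overlapping strains, named after their values were seen, Ndufb9 had 14004, 11582 and 12846 in A/J and 6410.2, 10852 and 5316 in DBA/2J (log2 difference -0.83, SE 0.25, adjusted p = 0.13). Ndufb5 had 8214, 7713 and 7790.2 in A/J and 5463, 5823 and 4009 in DBA/2J and Ndufb10 had 3785, 2908 and 3951 in A/J and 2135, 2722 and 1584 in DBA/2J. Both were lowest on DBA/2J array 3, and their log2 differences were -0.65 (adjusted p = 0.0975) and -0.74 (adjusted p = 0.149). Ndufa5 (-0.77), Ndufb7 (-0.62), Ndufa9 (-0.56), Ndufa12 (-0.56) and Ndufb6 (-0.54) also had no overlap between strains. Ndufab1, the acyl carrier protein of mitochondria, had -0.75 with overlapping strains.

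At the other end of complex I, Ndufb11 had 11386, 11502 and 11115 in A/J and 10316, 12924 and 7388 in DBA/2J, so that DBA/2J array 2 was the highest of all 6 arrays and array 3 the lowest (log2 difference -0.19, SE 0.20, adjusted p = 0.744). Ndufb1 gave the lowest estimate of the complex but was dim, with 287, 163 and 165 in A/J and 28.1, 229 and 98.2 in DBA/2J. One DBA/2J array was among its higher values, and its standard error was 0.55 (log2 difference -1.0, adjusted p = 0.452). Ndufb4 was read by a single dim probe set of its own, with 186, 122 and 172 in A/J and 142, 145 and 132 in DBA/2J (log2 difference -0.16, SE 0.24, adjusted p = 0.832). The brighter probe sets for it also name the copies Ndufb4b and Ndufb4c, so they were not counted here, and their log2 differences were -0.56 and -0.75 (adjusted p = 0.315 and 0.265). Probe sets naming Ndufs6 with its copy Ndufs6b, Ndufab1 with a pseudogene and Ndufs5 with a pseudogene gave -0.64, -0.64 and -0.58. Both probe sets naming Ndufa11 with its copy Ndufa11b gave values near 0 (-0.097 and 0.048), and a dim one naming Ndufb2 with Adck2 gave 0.62. Both naming Ndufa13 with Yjefn3 were too dim to be tested, at 0.89 and 0.11. None of the tested ones was called.

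**Figure D3:**
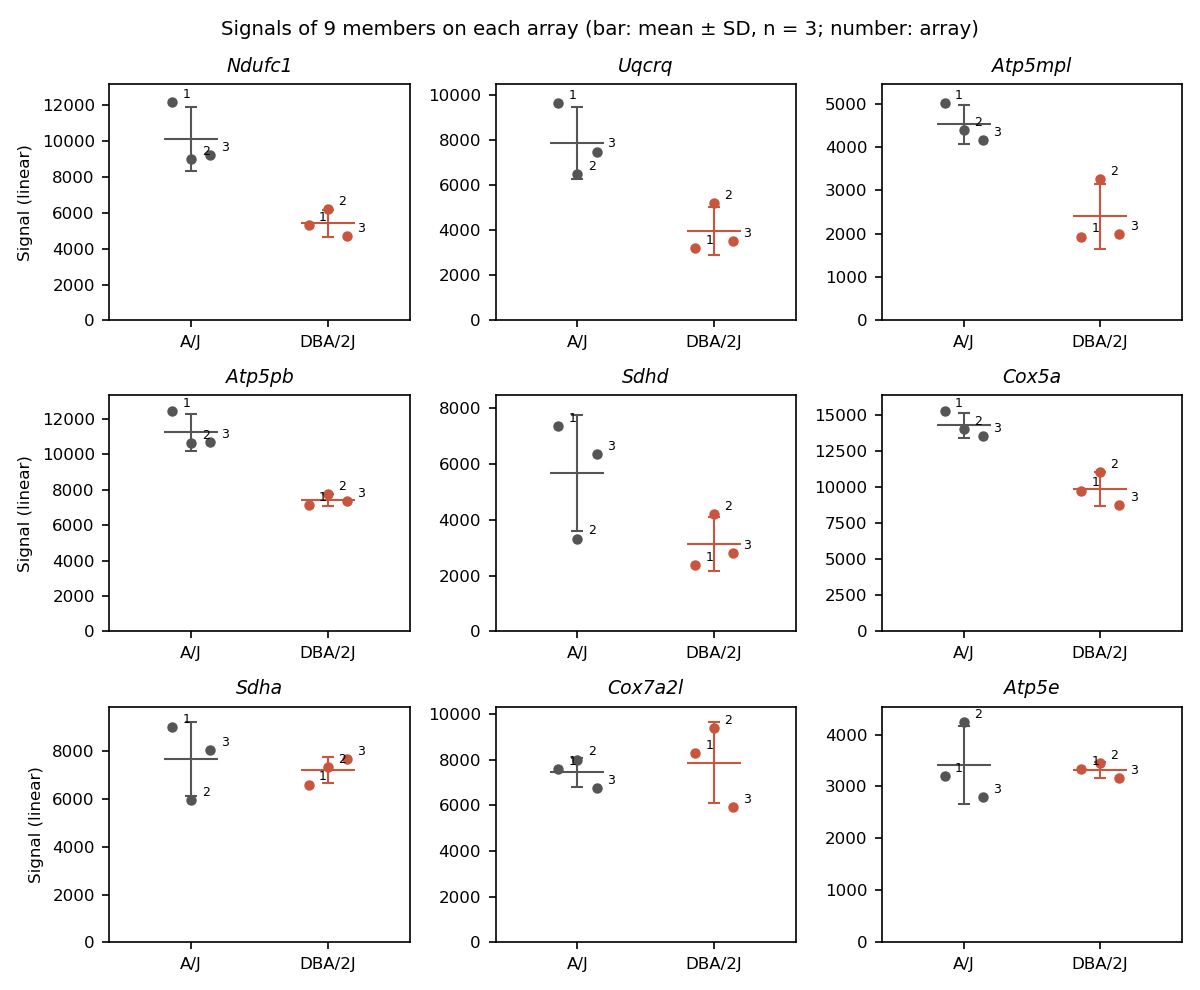
Linear signals of 9 members on each array, with the array's number beside each point and the mean ± SD (n = 3 pools) of each strain. Ndufc1, Uqcrq, Atp5mpl, Atp5pb and Cox5a do not overlap between strains, Sdhd overlaps through A/J array 2, and Sdha, Cox7a2l and Atp5e overlap widely.

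Complex II oxidises succinate and is shared with the tricarboxylic acid cycle. By the estimates of the brightest probe sets, Sdhd, Sdhb and Sdhc were lower in DBA/2J and Sdha stood near 0, and none was called. Sdhd, a membrane anchor, had 7346, 3324 and 6344 on A/J arrays 1 to 3 and 2364, 4203 and 2797 on DBA/2J arrays 1 to 3. A/J arrays 1 and 3 were well above the rest, while A/J array 2 lay among the DBA/2J arrays (log2 difference -0.82, SE 0.32, adjusted p = 0.251). Sdhb, the iron-sulfur subunit, had 12815, 7334 and 10773 in A/J and 6333, 7738 and 5159 in DBA/2J. A/J array 2 was again the lowest of its strain and lay below DBA/2J array 2 (log2 difference -0.67, SE 0.23, adjusted p = 0.201).

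Sdhc, the other membrane anchor, had 2617, 2135 and 2755 in A/J and 1317, 2292 and 1914 in DBA/2J (log2 difference -0.47, SE 0.23, adjusted p = 0.396). Here DBA/2J array 2 exceeded A/J array 2. Sdha, the flavoprotein that binds succinate, had 9014, 5962 and 8029 in A/J and 6598, 7327 and 7659.5 in DBA/2J (log2 difference -0.073, SE 0.18, adjusted p = 0.907). Its lowest value was A/J array 2, and the DBA/2J values all lay between that and A/J array 3. Another bright probe set of Sdha, with signals from 5244.5 to 7628, gave -0.32 without overlap between strains. A dim one, with signals from 296 to 627, gave 0.45. The interval for Sdha, -0.49 to 0.34, does not show that it was the same in both strains.

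Complex III hands electrons from ubiquinol to cytochrome c, and its lowest value was that of a small accessory subunit. Uqcrq, a small membrane subunit, had 9631, 6500.4 and 7489 on A/J arrays 1 to 3 and 3209.6, 5205 and 3529 on DBA/2J arrays 1 to 3. The strains did not overlap, and DBA/2J array 2 was the nearest to A/J. The A/J mean was 1.99-fold the DBA/2J mean, and the adjusted p of 0.0514 was just over the threshold (log2 difference -0.99, SE 0.23, adjusted p = 0.0514). It was under the threshold when p was adjusted over the 13006 genes. Another kept probe set of Uqcrq, with dim signals from 168 to 241, gave 0.0083.

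Uqcr11 had 8679, 6801 and 6608 in A/J and 4143, 5546 and 3188 in DBA/2J, without overlap (log2 difference -0.80, SE 0.22, adjusted p = 0.105). Uqcr10 had 2054, 1678 and 1864 in A/J and 1088, 2230.1 and 539 in DBA/2J, with DBA/2J array 2 above all A/J arrays and array 3 far below (log2 difference -0.75, SE 0.42, adjusted p = 0.464). A second probe set of Uqcr10 ran the other way: it had 64.8, 49.6 and 37.4 in A/J and 430.0, 549.5 and 239 in DBA/2J (log2 difference 2.61, SE 0.33, adjusted p = 0.00329) and was the only member probe set called higher. The third gave 0.55, so Uqcr10 had no settled direction. The hinge protein Uqcrh had -0.60. Uqcrb had 25395, 22330.2 and 20474 in A/J and 22366, 22922 and 16342 in DBA/2J (log2 difference -0.16, SE 0.17, adjusted p = 0.741), with overlapping strains, while its other probe set gave -0.72 (adjusted p = 0.188).

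The 4 core members of complex III had a median of -0.49. They were Uqcrc2 at -0.61, the Rieske iron-sulfur protein Uqcrfs1 at -0.52, cytochrome c1 (Cyc1) at -0.47 and Uqcrc1 at -0.33. Of these, the strains did not overlap in Uqcrc2, with 15412, 11727 and 12282 in A/J and 8577, 11515 and 6362 in DBA/2J. Uqcrc1 had 3810.1, 2058 and 3266 in A/J and 1729, 2685 and 2738 in DBA/2J, and DBA/2J arrays 2 and 3 both exceeded A/J array 2.

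Complex IV, cytochrome c oxidase, reduces oxygen to water. Its subunits encoded in the nucleus gave smaller estimates, and none was called. Cox5a, a subunit on the matrix side, had 15265, 14040.4 and 13579.7 on A/J arrays 1 to 3 and 9779, 11081 and 8749 on DBA/2J arrays 1 to 3. The strains did not overlap (log2 difference -0.54, SE 0.15, adjusted p = 0.0953). Cox5b, the zinc-binding subunit, had 19915, 16848 and 16521 in A/J and 13116, 14471 and 10751 in DBA/2J, again without overlap (log2 difference -0.48, SE 0.16, adjusted p = 0.171). Its 5 kept probe sets ran from -0.62 to 0.15, the latter from a dim one. Cox6c had -0.37, and Cox7c was read by a dim probe set with signals from 134 to 255 (-0.33).

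Several subunits of complex IV have a common form and a form of muscle, fat or testis. Of the common forms, Cox6b1 had 21979, 19512 and 19476 in A/J and 14962, 17792 and 12620.0 in DBA/2J, without overlap (log2 difference -0.44, SE 0.16, adjusted p = 0.209). Cox7a2 had 20716, 18169 and 18054 in A/J and 15779, 18849 and 12111 in DBA/2J, where only DBA/2J array 2 reached the A/J range. Cox6a1 and Cox8a also overlapped, and the log2 differences of Cox7a2, Cox6a1 and Cox8a were -0.30, -0.23 and -0.28 (adjusted p = 0.481, 0.653 and 0.756). Cox7a2l, a relative of Cox7a2 that joins complexes III and IV into supercomplexes, had 7574, 7999.5 and 6743 in A/J and 8297, 9383 and 5904 in DBA/2J. DBA/2J arrays 1 and 2 lay above all A/J values and array 3 below all of them (log2 difference 0.057, SE 0.19, adjusted p = 0.935).

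The testis forms were dim or near 0: Cox6b2 had 117, 121 and 99.5 in A/J and 152, 107 and 125 in DBA/2J (log2 difference 0.16, SE 0.25, adjusted p = 0.838) and Cox8c -0.14. Cox7b2 was too dim to be tested, with 64.7, 20.7 and 59.4 in A/J and 24.8, 78.0 and 17.0 in DBA/2J. The forms of muscle and brown fat are no members but measure the same subunits. Cox6a2, of heart and skeletal muscle, had 2910.3, 1254 and 2664 in A/J and 198, 312 and 171 in DBA/2J and was called lower (log2 difference -3.19, SE 0.35, adjusted p = 0.00147). Cox7a1, of muscle and brown fat, had 3775, 1881 and 2899.7 in A/J and 489, 1563 and 606 in DBA/2J (log2 difference -1.80, SE 0.42, adjusted p = 0.0557). Cox8b, of the same tissues, had 3861, 3123 and 3444 in A/J and 1927, 4403 and 1423 in DBA/2J, with DBA/2J array 2 the highest of all (log2 difference -0.59, SE 0.36, adjusted p = 0.511).

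Forms linked to low oxygen leaned the other way, and neither was called. Ndufa4l2, induced by hypoxia, had 826, 1336 and 1109 in A/J and 2007, 1782 and 2246 in DBA/2J, with every DBA/2J array above every A/J array (log2 difference 0.89, SE 0.22, adjusted p = 0.0667). Cox4i2, the lung form of subunit 4 that is abundant in type I cells, had 221, 165 and 150.5 in A/J and 274, 255 and 239 in DBA/2J, also without overlap (log2 difference 0.50, SE 0.22, adjusted p = 0.334). The common forms were lower by estimate, with Cox4i1 at -0.41 and Ndufa4 at -0.81. The type I markers given above were higher on the same DBA/2J arrays, and their part in these values was not tested.

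Complex V has a catalytic F1 head, a stalk and a proton channel in the membrane, and here the head differed least by estimate. Median log2 levels were 13.18 for the head, 13.08 for the stalk and 11.76 for the membrane subunits. The part of signal level in this order was not tested. The 5 F1 subunits had a median of -0.31 and 0 of 5 had an unadjusted p under 0.05: Atp5a1 -0.36, Atp5b -0.22, Atp5c1 -0.36, Atp5d -0.31 and Atp5e -0.020. Atp5b, the catalytic beta subunit, had 15609, 8866 and 13857 in A/J and 10277, 10949 and 10760.2 in DBA/2J. The A/J values spread more widely than the DBA/2J values, and A/J array 2 was the lowest of the 6. Atp5e, the epsilon subunit, had 3203, 4244 and 2789 in A/J and 3341, 3448 and 3157 in DBA/2J, with the DBA/2J arrays inside the A/J range (log2 difference -0.020, SE 0.19, adjusted p = 0.978).

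The stalk subunits had a median of -0.47 over 4 genes. Atp5pb, subunit b of the outer stalk, had 12422, 10621 and 10671 on A/J arrays 1 to 3 and 7136, 7766 and 7363 on DBA/2J arrays 1 to 3. The strains were well apart and the DBA/2J arrays close together (log2 difference -0.59, SE 0.14, adjusted p = 0.0602). Atp5o, the protein that joins the stalk to the head, had 8814, 6074 and 7570.3 in A/J and 4984, 5331 and 4526 in DBA/2J, without overlap (log2 difference -0.58, SE 0.18, adjusted p = 0.14). Its dimmer probe set had 3509, 2579.6 and 2555 in A/J and 1442, 1750.3 and 1326 in DBA/2J and was called lower (log2 difference -0.92, SE 0.20, adjusted p = 0.0431). Atp5h had -0.35 and Atp5j -0.14.

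The 8 membrane subunits had a median of -0.55. Atp5mpl, a small proteolipid bound to the enzyme, had 5014, 4392 and 4157 on A/J arrays 1 to 3 and 1933, 3259.5 and 1999 on DBA/2J arrays 1 to 3. The strains did not overlap, and DBA/2J array 2 stood well above the other DBA/2J arrays (log2 difference -0.95, SE 0.23, adjusted p = 0.0602). Atp5md, also a small subunit of the membrane part, had 5479, 4912 and 4709 in A/J and 2269, 4444 and 1986 in DBA/2J (log2 difference -0.88, SE 0.28, adjusted p = 0.159), and DBA/2J array 2 again lay just under the A/J arrays. Atp5l, subunit g, had 2440.1, 2089.6 and 1879 in A/J and 1325, 1748 and 961 in DBA/2J, again without overlap (log2 difference -0.69, SE 0.24, adjusted p = 0.193). Atp5k (subunit e) and Atp5j2 (subunit f) had -0.54 and -0.37 with overlap.

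Subunit c, the rotor ring of the channel, is made from 3 genes for the same mature protein. Atp5g1 had 1609, 1621 and 1603 in A/J and 1042, 1786 and 687 in DBA/2J: its A/J arrays were almost equal, while DBA/2J array 2 lay above and arrays 1 and 3 below them (log2 difference -0.56, SE 0.31, adjusted p = 0.452). Atp5g3 had 15891, 13762 and 14449 in A/J and 14533, 13214 and 11508 in DBA/2J (log2 difference -0.17, SE 0.14, adjusted p = 0.665) and Atp5g2 had 3096, 2140.1 and 3329 in A/J and 2412, 3730.0 and 2100.0 in DBA/2J (log2 difference -0.074, SE 0.26, adjusted p = 0.936). In both the strains overlapped. None of the 3 genes was called.

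Genes with more than one kept probe set gave a check within the arrays. Over all 146 kept member probe sets the median log2 difference was -0.47, and 133 were below 0. The 3 that were called measure Ndufc1, Atp5o and Uqcr10, the last of them upwards. Among all probe sets, 3.27% were called in either direction. Of 46 members with several kept probe sets, 9 spanned more than 0.5 between them: Cox5b, Cox8c, Ndufa7, Ndufc2, Ndufs4, Sdha, Uqcr10, Uqcrb and Uqcrq. Ndufs4, a subunit whose loss in mice gives a Leigh-like brain disease, ran from -0.56 to 0.88, and its brightest probe set gave -0.39 (adjusted p = 0.717). The 0.88 came from its dimmest kept probe set (SE 0.23, adjusted p = 0.0852). That probe set had 318, 208 and 312.5 in A/J and 463.7, 607 and 495.7 in DBA/2J, without overlap. Both brighter ones were below 0, with overlapping strains. Ndufa7 ran from -0.90 to -0.28 and Ndufc2 from -0.73 to -0.11, all below 0.

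The mitochondrial genome itself encodes further subunits. One probe set names ND5, a core subunit of complex I, and had 21537, 14001 and 16725 in A/J and 14340.5, 16398 and 12266 in DBA/2J. The strains overlapped (log2 difference -0.27, SE 0.19, adjusted p = 0.584).

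Other genes of oxidative metabolism, in lists written for this comparison with earlier results known, differed in part like the subunits. Calls in each list stand beside shares of 1.6% of all genes called lower and 2.17% called higher. Of 18 tested genes of the tricarboxylic acid cycle and pyruvate dehydrogenase, 17 were below 0, with a median of -0.57, and 1 was called lower and 0 higher. It was Suclg1, a succinyl-CoA ligase subunit, with 8455, 6018 and 7295 in A/J and 3439, 4652 and 3735 in DBA/2J, where the strains did not overlap (log2 difference -0.88, SE 0.19, adjusted p = 0.0415). Idh3a of the cycle had the lowest estimate (-1.05, adjusted p = 0.107), and Pcx, which feeds the cycle with oxaloacetate, the highest (0.68, adjusted p = 0.208).

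Of 18 genes of other electron carriers and quinone synthesis, 16 were below 0, with a median of -0.38, and 1 was called lower and 0 higher. Gpd2, the glycerol-3-phosphate dehydrogenase that feeds ubiquinone and is abundant in brown fat, had 4341, 2836 and 3965 in A/J and 1133, 2142 and 1569 in DBA/2J (log2 difference -1.22, SE 0.26, adjusted p = 0.0413). Coq8a, of ubiquinone synthesis, had -1.38 (adjusted p = 0.0553), Etfb, which brings electrons from fatty acids, -0.88, and cytochrome c (Cycs) -0.44 (adjusted p = 0.189).

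The machinery that builds or serves the chain stood nearer to 0. Of 41 assembly factors, 27 were below 0 with a median of -0.17, and 0 were called in either direction by limma. At an unadjusted limma p under 0.05, 5 were lower and 0 higher. Over all genes, 3.77% were called in either direction and 7.83% were lower at that unadjusted level. The assembly factors were dimmer than the subunits, with median log2 levels of 9.30 and 12.63. Cox17, the copper carrier for complex IV, had -0.73 (adjusted p = 0.123), and Ttc19, of complex III, was the highest at 0.44. Of 23 genes of protein import and folding the median was -0.18 and 0 were called, with 2 lower and 1 higher at an unadjusted p under 0.05. The 6 tested carriers and porins, which pass ADP, ATP and phosphate through the mitochondrial membranes, had a median of -0.10 with 0 called and 0 at an unadjusted p under 0.05.

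Slc25a4, the ADP/ATP carrier of heart and muscle, had 11388, 11278 and 10759.8 in A/J and 11549.5, 10509 and 9924 in DBA/2J. The arrays of the strains overlapped within a narrow range (log2 difference -0.066, SE 0.14, adjusted p = 0.883). The porin Vdac1 had -0.18 and the phosphate carrier Slc25a3 -0.024. The carriers and the subunits were not tested against each other.

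Among 17 regulators of mitochondrial biogenesis the median was -0.17, and 1 was called lower and 0 higher. Ppargc1b, a coactivator that drives genes of the respiratory chain, had 1237, 973 and 992 in A/J and 373, 649 and 287 in DBA/2J, without overlap (log2 difference -1.33, SE 0.29, adjusted p = 0.0426). Ppargc1a, its relative induced in brown fat and muscle, had 1818, 929 and 841 in A/J and 763, 634 and 352 in DBA/2J (log2 difference -1.0, SE 0.36, adjusted p = 0.209). Esrra, the oestrogen-related receptor alpha, had -0.69 (adjusted p = 0.189). Its relatives Esrrb and Esrrg had -0.41 and 0.13. Of the other factors named for the promoter motifs, Nrf1 had 0.095, Gabpa 0.18 and Yy1 -0.17. Tfam, the packaging factor of mitochondrial DNA, had 0.092.

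**Figure D4:**
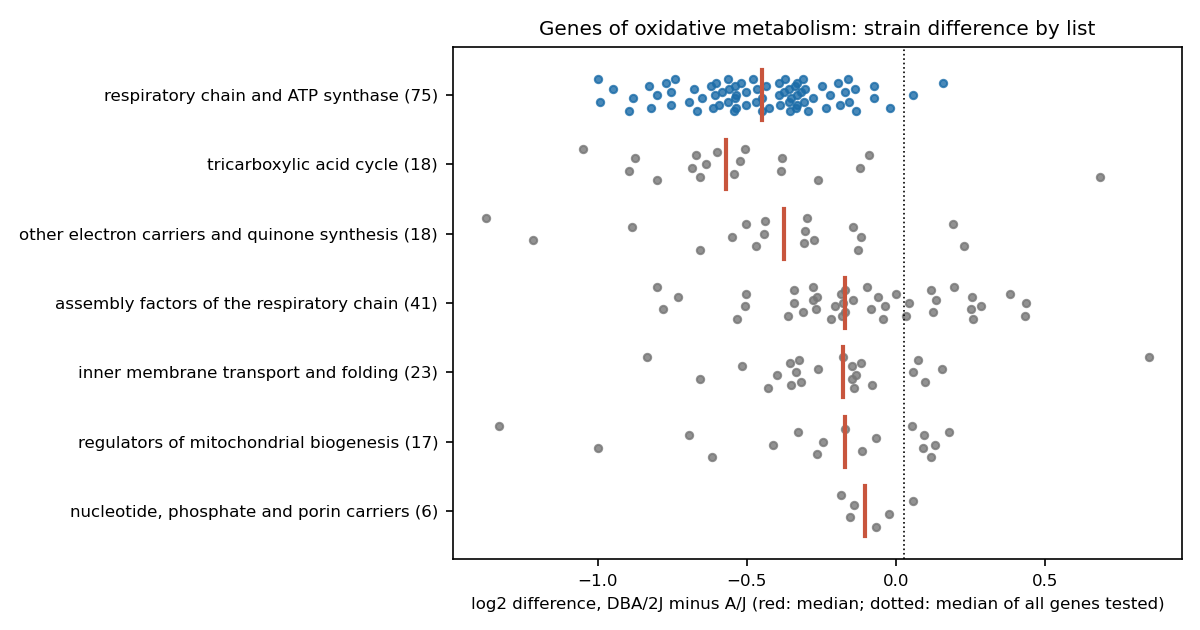
Log2 difference (DBA/2J minus A/J) of each tested gene in the respiratory chain and in 6 lists of related genes, with the number tested in brackets. Red bars are list medians, from -0.57 for the tricarboxylic acid cycle to -0.10 for the carriers, and the dotted line is the median of all genes tested, 0.025.

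Markers of muscle, fat and other cell types were measured on the same arrays. The 75 members held 2.19%, 1.85% and 1.97% of the summed A/J signal (arrays 1 to 3) and 1.51%, 1.84% and 1.29% of the DBA/2J signal. Of 21 tested skeletal muscle markers (26 listed), 20 were called lower and 21 were below 0. Their share of the signal was 0.506%, 0.195% and 0.429% for the A/J pools and 0.00863%, 0.0151% and 0.00846% for the DBA/2J pools, with Tnnc2 down to 16.9 and Myh4 down to 11.3 in DBA/2J. A/J array 2 had the least muscle signal of its strain and was also the lowest A/J array in 46 of 75 members. Among the DBA/2J arrays, array 2 had the most muscle signal and was also the highest in the members' share. Over all 6 arrays the muscle share and the member share ran in the same order, but not in proportion. A/J array 2 and DBA/2J array 2 had muscle shares of 0.195% and 0.0151%, while their member shares were 1.85% and 1.84%.

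Of 9 tested brown fat markers, all 9 were below 0 and 3 were called lower: Ucp1, Dio2 and Otop1. The list includes Cox7a1 and Cox8b, forms of complex IV subunits, and the regulator Ppargc1a, whose values are also given above. Ucp1, the uncoupling protein, had 24394, 14703 and 18985 in A/J and 5653, 10302 and 7603 in DBA/2J (log2 difference -1.31, SE 0.25, adjusted p = 0.024). The markers held 0.0942% to 0.158% of the A/J signal and 0.0406% to 0.0763% of the DBA/2J signal. The defining markers Ucp1, Cidea and Elovl3 had no signal below 234 in either strain, while Zic1 was too dim to be tested, with 82.4, 39.1 and 50.5 in A/J and 82.9, 20.9 and 36.1 in DBA/2J. Of 8 general adipocyte markers, 8 were below 0 and 2 were called lower. They held 0.129% to 0.144% (A/J) and 0.0684% to 0.102% (DBA/2J) of the signal. Plin1 had no probe set naming it alone, and Lep was too dim to be tested. Of 9 type II and Schwann cell markers, 7 were below 0 and 1 was called lower, at 0.136% to 0.163% and 0.105% to 0.115%. Of 4 erythroid markers, 2 were called lower, at 0.0157% to 0.0178% and 0.00536% to 0.00821%. Of 3 cardiac markers, Actc1 was called lower (-2.17), while Myh6 and Myl4 had 0.33 and 0.0021 and Tnni3 was too dim. The list held 0.00658% to 0.0162% and 0.00295% to 0.00463%. In each of these lists, from muscle and brown fat to erythroid and cardiac, DBA/2J array 2 had the highest share of its strain. It also had the highest share for the members. For the cardiac list this came from Myh6, with 37.3, 642.5 and 76.5 on DBA/2J arrays 1 to 3. Actc1 and Myl4 were highest on DBA/2J array 1 among the arrays of that strain. The part of muscle, fat or any other cell type in the members' values was not tested.

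**Figure D5:**
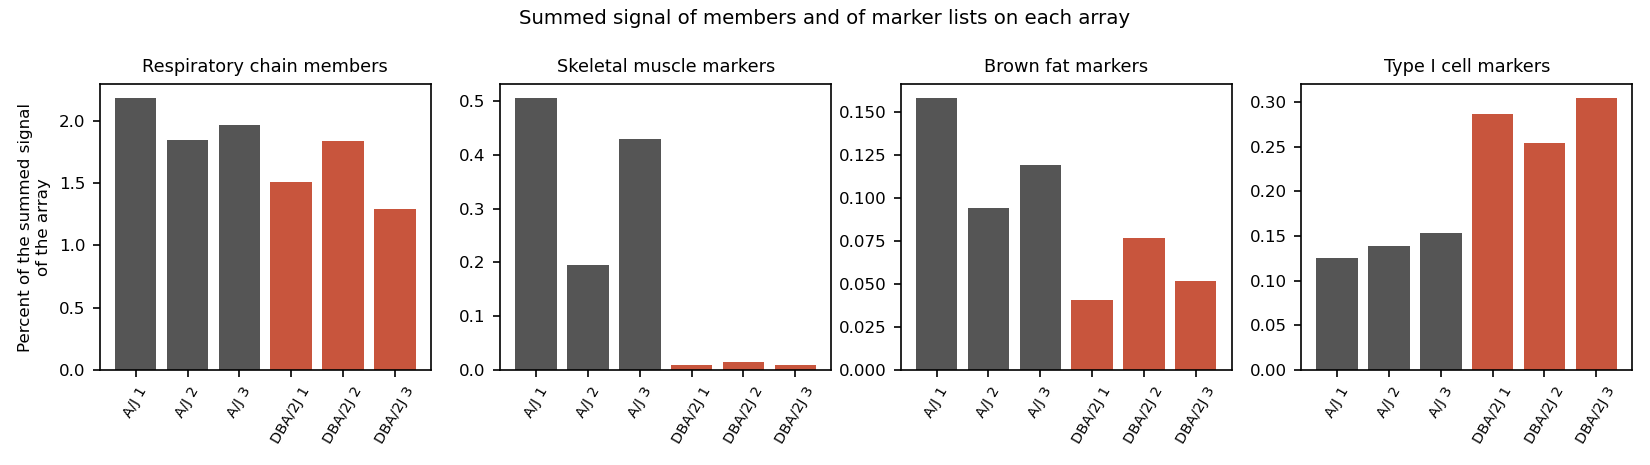
Share of each array's summed signal held by the 75 members, by 21 skeletal muscle markers, by 9 brown fat markers and by 14 type I cell markers; bars start at 0 and each panel has its own scale. DBA/2J array 2 is the highest DBA/2J array for the members (1.84%), for muscle (0.0151%) and for brown fat (0.0763%), and the lowest for type I cells (0.254%).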

How the data were processed

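Total RNA from 6 pools of carotid bodies had been hybridised to Affymetrix Mouse 430 2.0 arrays, per the labels. The deposited values are linear intensity signals that the authors had scaled to a common level, with the same 2%-trimmed mean on every array. The sources used here name no software for this step, and detection calls were not used. Amplification from the poly(A) tail, per the labels' protocols, can make probe sets far from the 3' end read low. Genes were named from GEO's platform annotation.

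After removal of 64 control probe sets, signals were turned to log2(signal + 16), and the 27022 probe sets with the highest means (the upper 60%) were kept. DBA/2J minus A/J was fitted over all 6 arrays with limma 3.58.1 (lmFit, eBayes with trend, two-sided, R 4.3.3) and adjusted by Benjamini-Hochberg over those probe sets, at 0.05. Each of 13006 genes was represented by the brightest kept probe set that names it alone. The labels name separate pools, so p-values measure the spread between pools. The procedure was tested on simulated data with changes larger than the members' estimates. That does not show how well changes of the members' size are found.

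Members and lists were chosen with earlier results of these data known, so no p is given over a list. Named members are those called on any kept probe set, the 2 lowest and 2 highest of each complex, those with probe sets spanning over 0.5, subunits with several genes and those not tested. Of the related lists, called genes and some of the lowest and highest are named. Other members and genes were named for their role or after their values were seen. Alternatives covered normalization, the pseudocount, the filter on dim probe sets, the trend, array weights, the choice of probe sets and of arrays, blocks by a number shared in some titles and a muscle covariate. Added after seeing the data were a fit without A/J array 1 and DBA/2J array 3 and p adjusted over genes. Promoter windows were read from RefSeq (GRCm38.p6).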

Additional observations from a re-analysis of the deposited data

How the results depend on the processing

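The median log2 difference of the members stayed below 0 in every setting but the muscle covariate and the pair of arrays numbered 2: it ran from -0.27 to -0.62 when single arrays were left out and from -0.34 to -0.49 under the other settings run on all arrays. The number of members called lower, 1 here, was 5 with scaling to one median, 2 with a pseudocount of 64, with the upper 40% of probe sets and with p adjusted over genes, 3 with the mean of all kept probe sets of a gene and 32 with array weights. It was 0 with no filter, without the intensity trend and with probe sets free of the suffixes s, x and a, where 1 member, Uqcr10, was called higher. It ran from 0 to 16 when single arrays were left out, the 16 without DBA/2J array 2. The cause was not tested. Ndufc1 was among the called members in each setting that called any lower. No scaling moved the median of all genes by over 0.1.

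With the mean over muscle markers in the fit, 0 members were called, 11 were below 0, the median was 0.55, and the complexes I to V had medians of 0.79, 1.23, 0.87, 0.18 and 0.43. The median standard error of the members rose from 0.21 to 0.70, and 0.15 was the median of all genes. Single members turned to Atp5g1 0.71, Atp5g2 1.98, Atp5g3 0.21, Atp5md 0.55, Atp5mpl 0.11, Atp5o 0.58, Cox5b 0.18, Cox6a1 0.14, Cox6b1 0.25, Cox6b2 -0.44, Cox7a2 0.49, Cox8a 1.36, Ndufa7 1.54, Ndufb1 2.10, Ndufb11 0.45, Ndufb4 1.01, Ndufc1 0.095, Ndufc2 0.43, Ndufs4 2.06, Sdha 1.09, Sdhb 1.36, Sdhc 0.80, Sdhd 2.23, Uqcr10 1.61, Uqcr11 0.38, Uqcrb 0.33, Uqcrc1 1.67 and Uqcrq 0.66.

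Without A/J array 1 and DBA/2J array 3 together, 0 members were called and the median was -0.19, with -0.19 in complex I and -0.13 in complex V. There Atp5g2 0.17, Cox6a1 0.023, Cox8a 0.20, Ndufb11 0.030, Ndufs4 0.11, Sdha 0.0071 and Uqcrb 0.083 changed sign.

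A number shared in the titles pairs A/J array 2 with DBA/2J array 2, and array 3 with array 3. Deviations from the group means correlated at -0.26 and 0.035 within these pairs. Between A/J and DBA/2J arrays with different numbers the correlations ran from -0.26 to 0.20. The sources used here do not give the meaning of the number, and a shared batch was not tested. With that number as a fixed replicate block, 0 members were called, the median was -0.34, and Atp5g2 0.068, Sdha 0.11 and Uqcrc1 0.064 changed sign. With it as a random replicate block, 1 member was called and the median was -0.45. Within the pair numbered 2 the median was 0.038, 34 members were below 0, and complexes I, II, III and V had 0.088, 0.20, 0.056 and -0.052. Within the pair numbered 3 the median was -0.72, and complexes I, III, IV and V had -0.81, -0.95, -0.58 and -0.66.

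Among members near 0 or with probe sets that differ, signs turned as follows. The mean of all kept probe sets gave Atp5g2 0.074, Cox7a2l -0.048, Cox8c 0.12, Sdha 0.022 and Uqcr10 0.80, and probe sets free of the suffixes gave Cox5b 0.15, Uqcr10 2.61 and Uqcrq 0.0083. Quantile normalization gave Sdha 0.068 and array weights Atp5e 0.061. Leaving out single arrays, Atp5e from -0.15 to 0.15, Atp5g2 from -0.32 to 0.096, Cox7a2l from -0.084 to 0.25, Cox8a from -0.50 to 0.11, Ndufb11 from -0.38 to 0.027, Ndufs4 from -0.85 to 0.039 and Sdha from -0.24 to 0.054 crossed 0. Signals near background limit Ndufb1, Ndufb4, Cox7c, Cox6b2 and Cox7b2.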
